A study of Zea mays with 4 samples.

Results

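bHLH7, ARF4 and fea3 are 3 regulatory genes of maize (Zea mays) whose transcripts were counted in kernels of zmknl1 mutant and wild type (WT) plants. They were taken by their gene IDs, GRMZM2G042920, GRMZM2G034840 and GRMZM2G166524, and all 3 were present among the 39625 counted IDs. The groups were 2 libraries of kernels labelled zmknl1 mutant and 2 libraries of wild type kernels. All kernels were collected 14 days after pollination from field-planted material, and the replicates of a genotype came from different ears. The mutant is named after KNL1, a kinetochore protein that helps link chromosomes to spindle microtubules. The inbred background and the mutant allele are not given in the sources used here, and the level of the Knl1 gene itself was not analysed here. The 3 genes were chosen by their counts in the same zmknl1 against WT contrast, which were far lower in zmknl1. Their difference between the genotypes is therefore a description and carries no test.

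The 3 genes act at different steps of plant development. bHLH proteins are transcription factors that pair through a helix-loop-helix and bind E-box DNA through an adjoining basic region. Auxin response factors such as ARF4 bind auxin response elements in promoters; Aux/IAA proteins hold them inactive until auxin, perceived by receptors of the TIR1 and AFB type, causes the Aux/IAA proteins to be degraded. fea3 (fasciated ear3) encodes a receptor-like protein with leucine-rich repeats that limits the size of shoot and inflorescence meristems in maize. It belongs with the CLAVATA-type receptors, which sense short CLE peptides and restrain the stem cell factor WUSCHEL.

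Gene counts came to 16595289 to 22725030 per library. Levels are given as CPM, a share of the library's counts, on library sizes scaled by the trimmed mean of M-values (TMM). WT replicate 2 stood apart: its top 10 genes held 25.2% of its counts, against 6.74% to 7.77% in the other 3 libraries. It also had 23.9% of reads aligned to several places, against 10.9% to 13.5% in the other 3. Its TMM factor was 0.707, against 1.103 to 1.161 in the other 3, which raises its CPM. Folds of the 3 genes are therefore also given without WT replicate 2. Markers of the endosperm were abundant in every library, with 10600 and 16107 CPM summed over 8 listed IDs in zmknl1 and 26287 and 50732 CPM in WT, which fits the labelled tissue. The 3 matched markers of green maternal tissue summed to 0 CPM in both zmknl1 libraries and to 0.527 and 0 CPM in WT.

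bHLH7, the transcription factor, had 0 counts in zmknl1 replicate 1 and 0 counts in zmknl1 replicate 2, against 609 counts in WT replicate 1 and 269 counts in WT replicate 2. No read of this gene was thus counted in either mutant library, and both WT libraries held many. A count of 0 allows up to 3 counts, which is 0.131 CPM in zmknl1 replicate 1 and 0.120 CPM in zmknl1 replicate 2. The WT libraries measured 26.8 and 22.9 CPM. Taken from counts summed over each genotype, with a floor of 3 counts over the zmknl1 group, bHLH7 was at least 406-fold lower in zmknl1. Without WT replicate 2 the bound was 427-fold, and without WT replicate 1 it was 366-fold. With a floor of 3 counts in a single mutant library it was 194-fold from zmknl1 replicate 1 alone and 212-fold from zmknl1 replicate 2 alone, since fewer reads set a higher floor. Floors cover counting error only.

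ARF4, the auxin response factor, had 10 counts in zmknl1 replicate 1 and 0 in zmknl1 replicate 2, against 181 in WT replicate 1 and 139 in WT replicate 2. These are 0.438 and 0 CPM in zmknl1 and 7.95 and 11.9 CPM in WT, or 0.219 ± 0.310 CPM and 9.90 ± 2.76 CPM (SD, n = 2 each). The genotypes did not overlap, and reads were counted in only 1 of the 2 mutant libraries. A count of 0 does not show that the transcript was absent. From summed counts ARF4 was 44.4-fold lower in zmknl1. It was 38.1-fold lower without WT replicate 2 and 56.7-fold lower without WT replicate 1. The edgeR log2 fold change of zmknl1 over WT was -5.48 ± 1.37 (SE). The size of that estimate rested on zmknl1 replicate 1, which held all 10 mutant counts: without it the fitted value was -10.62, which depends on the prior count, and without zmknl1 replicate 2 it was -4.48.

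fea3, the receptor gene, had 0 counts in zmknl1 replicate 1 and 14 in zmknl1 replicate 2, against 380 in WT replicate 1 and 110 in WT replicate 2. The levels were 0 and 0.559 CPM in zmknl1 and 16.7 and 9.38 CPM in WT, with means of 0.280 ± 0.395 CPM and 13.0 ± 5.17 CPM (SD, n = 2 each). Again neither mutant library reached either WT library, but the few mutant reads lay in the library where ARF4 had none. From summed counts fea3 was 48.6-fold lower in zmknl1, with 57.1-fold when WT replicate 2 was left out and 32.1-fold when WT replicate 1 was left out. Its edgeR log2 fold change of zmknl1 over WT was -5.49 ± 1.32 (SE). Leaving out zmknl1 replicate 2, the source of all 14 mutant counts, gave a fitted -10.96, and leaving out zmknl1 replicate 1 gave -4.52.

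**Figure D1:**
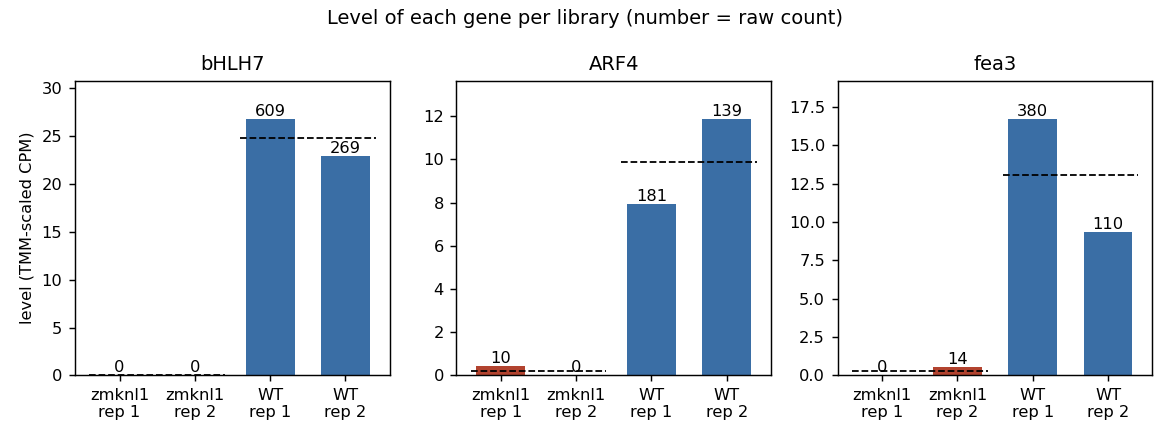
TMM-scaled CPM of bHLH7, ARF4 and fea3 in each library, with zmknl1 in red and WT in blue, the raw count above each bar and the mean of each genotype as a dashed line; the vertical scales differ between panels. bHLH7 had 0 counts in both zmknl1 libraries, while ARF4 and fea3 had 10 and 14 counts, each in a different mutant library.

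Within WT, replicate 1 over replicate 2 was 1.17 for bHLH7, 1.78 for fea3 and 0.671 for ARF4, which was the gene with more CPM in WT replicate 2. Each is 1 ratio of 2 libraries. Whether the 3 genes differ in it beyond replicate spread was not tested. Non-overlap of the genotypes in the downward direction is common in these data: 20.0% of the 19519 tested genes had both zmknl1 libraries below both WT libraries. The depth of the difference is less common. Of 11600 genes with at least 5 CPM in both WT libraries, 45 (0.388%) were under 1 CPM in both zmknl1 libraries. These were 0.231% of all tested genes, and 9 of the 45 had no zmknl1 count at all. In the opposite direction 36 of 12004 genes (0.300%) with at least 5 CPM in both zmknl1 libraries were under 1 CPM in both WT libraries. All 3 genes are among the 45, as their choice ensured. Ranked from the lowest edgeR log2 fold change of the 19519 tested genes, bHLH7 was 3rd, fea3 116th and ARF4 117th.

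The low counts were not shared by the tested matched neighbours of the 3 genes. The reference assembly places the 3 on different chromosomes, and the 5 nearest genes with a matched ID on either side of each were examined. That assembly is a later one than the counts used, so only gene order was taken from it. Genes without a matched ID were passed over. In the full gene order the neighbours reached from place -12 to 7 for bHLH7, -17 to 6 for ARF4 and -10 to 17 for fea3. Of the 10 neighbours of bHLH7, 9 were tested, and their log2 fold changes of zmknl1 over WT ran from -1.21 to 0.91 with a median of 0.05. Of the 10 neighbours of ARF4, 7 were tested, with log2 fold changes from -0.94 to 0.43 and a median of -0.21. All 10 neighbours of fea3 were tested, with log2 fold changes from -0.53 to 2.64 and a median of 0.13. Among the tested neighbours of each gene, 0 were under 1 CPM in both zmknl1 libraries.

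Some neighbours carry names of their own. wus1 (GRMZM2G047448), a maize WUSCHEL gene, lies 2 matched places from ARF4 and had 0 counts in all 4 libraries. bHLH76 (GRMZM2G112629), another bHLH gene, lies 3 matched places from fea3 and measured 1.45 and 1.40 CPM in zmknl1 and 0.615 and 0.767 CPM in WT. The nearest matched gene on one side of fea3, GRMZM2G355636, had 150 and 24.4 CPM in zmknl1 and 13.6 and 14.3 CPM in WT. It had the highest fold change of the tested neighbours and was singled out after its values were seen (adjusted p = 0.325 in edgeR, 0.0115 in DESeq2).

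**Figure D2:**
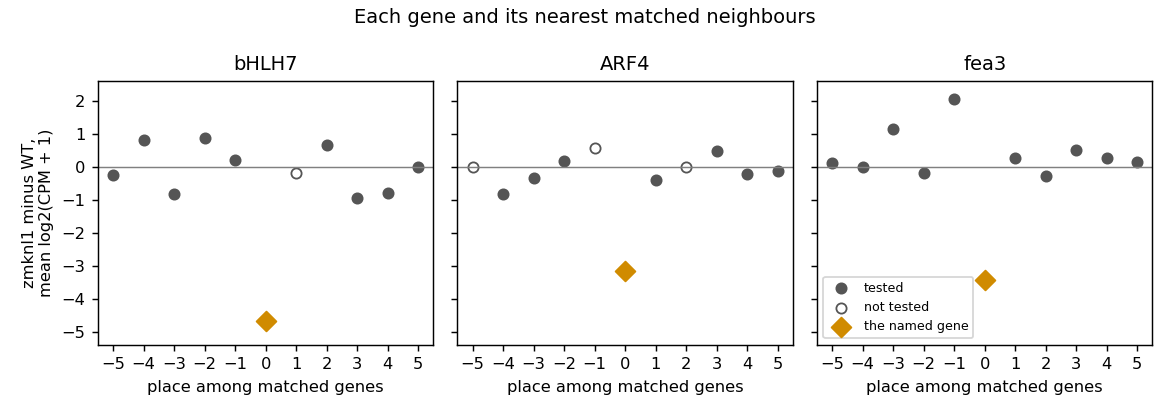
Difference in mean log2(CPM + 1), zmknl1 minus WT, for each gene (diamond) and for the 5 nearest genes with a matched ID on either side, in the order of the reference assembly; open circles were too low to be tested. The 3 genes lie at -4.69, -3.16 and -3.44, below every neighbour shown.

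Other genes of the same families and pathways were read from 5 lists built on reference names. Besides the 3 genes they held 119 IDs, of which 29 had no count in any library and 53 passed the low-count filter. The edgeR quasi-likelihood test called 0 of the 53, against 0.0205% of all tested genes, with 15 at an unadjusted p under 0.05 where 10.2% of all tested genes were. DESeq2, the tool the submitters named, called 8 lower and 1 higher in zmknl1, against 2.03% lower and 1.59% higher among all genes to which it gave an adjusted p. limma-voom called 0. Both zmknl1 libraries lay below both WT libraries for 21 of the 53 genes and above them for 4, against 20.0% and 21.9% of all tested genes. With WT replicate 2 left out, 27 of the 53 (50.9%) lay below, against 38.5% of all tested genes. With WT replicate 1 left out they were 31 (58.5%), against 36.2%. Fewer libraries can only keep or raise such counts.

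Auxin response factors other than ARF4 lay lower in zmknl1 on the median. Of 16 tested, 9 lay below both WT libraries, 1 above and 6 overlapped, against 20.0% below and 21.9% above over all tested genes. The median log2 fold change was -0.73, against 0.01 over all tested genes. edgeR called 0 and DESeq2 called 2 lower, against 2.03% lower among all genes given an adjusted p. ARF13 (GRMZM2G378580) measured 149 and 109 CPM in zmknl1 and 367 and 345 CPM in WT, with a log2 fold change of -1.46 ± 0.39 (SE; adjusted p = 0.298 in edgeR, 0.0229 in DESeq2). ARF28 (GRMZM2G006042) measured 70.9 and 70.6 CPM in zmknl1 and 198 and 161 CPM in WT (adjusted p = 0.304 in edgeR, 0.0454 in DESeq2). ARF10 (GRMZM2G338259), among the 3 with the highest CPM, had 128 and 126 CPM in zmknl1 and 181 and 204 CPM in WT and passed neither test (adjusted p = 0.654 and 0.671). The gene above both WT libraries, ARF5 (GRMZM5G808366), had 14 and 22 counts in zmknl1 and 0 in both WT libraries. Whether reads of near-identical copies were set aside unequally between these genes was not tested.

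Other auxin genes matched by name were read beside the response factors, with no receptor of the TIR1 or AFB type among them. The name match found only 3 Aux/IAA IDs, so other Aux/IAA genes may have been missed. Of the 3, only BIF1 (GRMZM2G130953, synonym AUX22) was tested. It had 6.61 and 6.47 CPM in zmknl1 against 0.922 and 0.938 CPM in WT (adjusted p = 0.305 in edgeR, 0.0368 in DESeq2). Of 8 other auxin genes tested, 3 lay below both WT libraries, 1 above and 4 overlapped, against 20.0% below and 21.9% above over all tested genes. edgeR called 0 of the 8, and DESeq2 called 2 lower, against 2.03% lower among all genes given an adjusted p. The auxin influx carrier gene aux1 (GRMZM2G129413, synonym aic1) had 0 counts in both zmknl1 libraries and 98 and 36 counts, or 4.31 and 3.07 CPM, in WT (adjusted p = 0.228 in edgeR, 0.0004 in DESeq2). Another ID named AUX1 (GRMZM2G000158) had 33.3 and 16.3 CPM in zmknl1 and 19.9 and 8.19 CPM in WT. The auxin-binding protein gene abp1 (GRMZM2G116204) had 21.3 and 20.5 CPM in zmknl1 and 89.9 and 62.1 CPM in WT (adjusted p = 0.246 in edgeR, 0.00521 in DESeq2).

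The remaining auxin genes named here passed no test. TAR3 (GRMZM2G141810), named for the aminotransferases of auxin synthesis, measured 281 and 227 CPM in zmknl1 and 92.8 and 264 CPM in WT. The auxin-binding protein gene abp4 (GRMZM2G064371) had 26.7 and 33.6 CPM in zmknl1 and 10.9 and 26.0 CPM in WT, with an edgeR adjusted p of 0.728. PIN1a (GRMZM2G098643), an auxin efflux carrier gene chosen after its values were seen, had 0 and 4 counts in zmknl1 and 54 and 14 counts in WT (adjusted p = 0.444 in edgeR, 0.227 in DESeq2).

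Among the other bHLH genes some were also near 0 in zmknl1. Of 17 tested besides bHLH7, 6 lay below both WT libraries, 1 above and 10 overlapped, and the median log2 fold change was -0.26. Over all tested genes 20.0% lay below and 21.9% above. edgeR called 0 and DESeq2 called 4 lower, against 2.03% lower among all genes given an adjusted p. bHLH148 (GRMZM2G080054) had 21 and 6 counts in zmknl1 and 204 and 179 counts in WT, with a log2 fold change of -4.38 ± 0.89 (SE; adjusted p = 0.229 in edgeR, 7.51e-05 in DESeq2). bHLH33 (GRMZM2G015666) had 0 and 4 counts in zmknl1 and 153 and 38 in WT (DESeq2 adjusted p = 0.00134). bHLH173 (GRMZM5G882527) had 10 and 1 counts in zmknl1 and 128 and 73 in WT (DESeq2 adjusted p = 0.00422). The edgeR adjusted p of these last genes was 0.277 and 0.294. The DESeq2 call that remains in this list, bHLH105 (GRMZM2G082586), had 1 and 0 counts in zmknl1 and 57 and 24 in WT.

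The 3 bHLH genes with the highest CPM passed no test. bHLH172 (GRMZM2G017586) measured 33.2 and 34.3 CPM in zmknl1 and 40.8 and 40.2 CPM in WT. bHLH125 (GRMZM2G017349) measured 14.8 and 30.4 CPM in zmknl1 and 5.89 and 44.5 CPM in WT. bHLH129 (GRMZM5G856837) measured 22.4 and 16.7 CPM in zmknl1 and 11.0 and 21.6 CPM in WT. Their edgeR adjusted p ran from 0.885 to 0.976. Another ID named bHLH172 (GRMZM2G093744), not among these 3, had 13.05 and 16.02 CPM in zmknl1 and 5.67 and 24.13 CPM in WT, and overlapped.

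**Figure D3:**
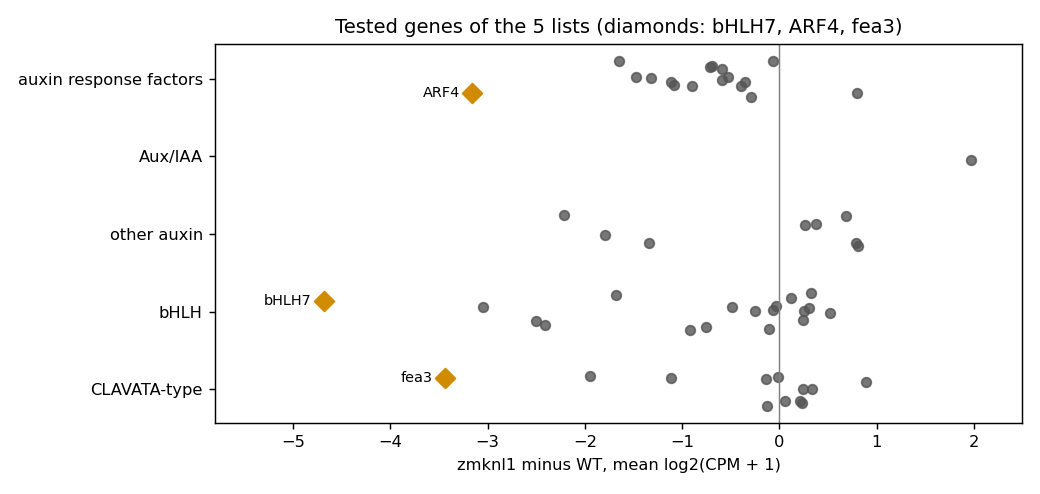
Difference in mean log2(CPM + 1), zmknl1 minus WT, for every tested gene of the 5 lists; diamonds mark bHLH7, ARF4 and fea3, and vertical scatter within a list has no meaning. On this scale, which shrinks differences of genes with low CPM, the diamonds lie at -4.69, -3.16 and -3.44. That is left of the other genes of their lists, on the contrast that chose them. In edgeR log2 fold change bHLH7 and ARF4 were also lowest in their lists, but FEA4 (-5.52) lay below fea3 (-5.49). In other lists aux1 (-9.25), bHLH105 (-6.39) and bHLH33 (-5.83) also lay below ARF4 (-5.48) and fea3.

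Genes of the CLAVATA-type list, which holds fea3, were read in the same way. Of 11 tested besides fea3, 3 lay below both WT libraries, 0 above and 8 overlapped, with a median log2 fold change of -0.19. Over all tested genes 20.0% lay below and 21.9% above. edgeR and DESeq2 each called 0, and 2 had an unadjusted edgeR p under 0.05, against 10.2% of all tested genes. fea2 (GRMZM2G104925), a second leucine-rich repeat receptor-like protein that limits meristem size, had 24.5 and 17.0 CPM in zmknl1 and 21.8 and 19.4 CPM in WT. ct2 (GRMZM2G064732), a G protein alpha subunit that acts with fea2, had 70.7 and 87.8 CPM in zmknl1 and 54.5 and 81.9 CPM in WT. GB1 (GRMZM2G045314), named for the G protein beta subunit, had 62.5 and 64.3 CPM in zmknl1 and 39.1 and 64.2 CPM in WT. The edgeR log2 fold changes of these 3 genes were 0.01 ± 0.43, 0.22 ± 0.40 and 0.30 ± 0.41 (SE), and their libraries overlapped between the genotypes.

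Genes of that list with few counts had fold changes of both signs, though kn1, FEA4 and wox13B lay below both WT libraries and 0 genes lay above. Those named here were picked out after their values were seen. kn1 (GRMZM2G017087), the homeobox gene that maintains shoot meristems, had 7 and 0 counts in zmknl1 and 82 and 38 counts in WT (adjusted p = 0.400 in edgeR, 0.0646 in DESeq2). FEA4 (GRMZM2G133331), a bZIP transcription factor gene that also limits meristem size, had 0 and 1 counts in zmknl1 and 32 and 12 counts in WT (adjusted p = 0.363 in edgeR, 0.200 in DESeq2). wox2A (GRMZM2G108933), a gene of the WUSCHEL-related homeobox family, had 6.31 and 11.1 CPM in zmknl1 and 2.46 and 6.48 CPM in WT, and overlapped. wox13B (GRMZM5G805026) had 1.66 and 1.36 CPM in zmknl1 and 1.67 and 1.79 CPM in WT, with a log2 fold change of -0.19 ± 1.01 (SE). The esr genes, named for the embryo-surrounding region, differed between the WT libraries. Their 4 IDs summed to 3.90 and 7.67 CPM in zmknl1 and to 0.264 and 14.2 CPM in WT. They entered the list by name, and whether each encodes a CLE peptide was not checked. wus1 and wus2 had 0 counts in all 4 libraries.

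Markers of kernel parts were read beside the 3 genes, and edgeR called 0 of them in any class. Their counts below or above both WT libraries stand against 20.0% and 21.9% of all tested genes. Their DESeq2 calls stand against 2.03% lower and 1.59% higher among all genes given an adjusted p. Of 6 tested embryo and oil body markers, 4 lay below both WT libraries and 1 above, DESeq2 called 3 lower, and the 8 listed IDs summed to 273 and 173 CPM in zmknl1 and 2962 and 713 CPM in WT. The oleosin gene ole1 (GRMZM2G337229) had 142 and 60.1 CPM in zmknl1 and 2156 and 449 CPM in WT, the globulin gene glb2 was at 0 in both zmknl1 libraries, and lec1 was at 0 in all 4. The embryo sum differed between the WT libraries, and ole1 was its largest part in WT. Whether the sum follows the amount of embryo was not tested. Of 4 tested shoot and inflorescence meristem markers, kn1 lay below both WT libraries, ra3 above, and 2 overlapped, and DESeq2 called 0. The 7 IDs summed to 42.0 and 30.0 CPM in zmknl1 and 40.6 and 34.0 CPM in WT, and ra1 and ba1 were at 0 in all 4. Of 5 aleurone markers 4 lay below both WT libraries and DESeq2 called 1 lower, with sums of 227 and 196 CPM in zmknl1 and 397 and 264 CPM in WT.

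Endosperm and transfer layer markers were counted in the same way. Of 7 tested endosperm markers 6 lay below both WT libraries, against 20.0% of all tested genes. DESeq2 called 3 of them lower, against 2.03% of all genes given an adjusted p. Of 8 tested transfer layer markers 7 lay above both WT libraries, against 21.9% of all tested genes. DESeq2 called 5 of the 8 higher, against 1.59%. The transfer layer list had sums of 230 and 153 CPM in zmknl1 and 48.7 and 60.3 CPM in WT, and betl1 was at 0 in all 4 libraries. The part of these markers in the low counts of bHLH7, ARF4 and fea3 was not tested. In libraries of whole kernels, fewer cells of a type and less transcript per cell cannot be told apart.

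The profiles of the 3 genes over the 4 libraries were compared with each other and with those of all genes. Likeness was measured as the root mean square distance between profiles of log2(CPM + 1), each centred on its own mean, among 17729 genes over 4 libraries. Since 2 libraries of each genotype make up the profile, likeness follows mainly from the genotype difference that chose the genes. fea3 and ARF4 were 0.63 apart, fea3 and bHLH7 0.69, and ARF4 and bHLH7 0.83 on this log2 scale. Many genes lay closer: fea3 was the 101st nearest gene to ARF4, bHLH7 the 255th, and ARF4 and bHLH7 were the 99th and 129th nearest to fea3. From bHLH7, fea3 was the 24th and ARF4 the 40th. GRF1 (GRMZM2G034876) is named for the growth-regulating factors, a family of transcription factors known for promoting cell proliferation in leaves. Among genes with a symbol of their own in the reference names, it was the nearest to all 3. At 0.74 from bHLH7, 0.29 from ARF4 and 0.37 from fea3, it was the 29th, 10th and 14th nearest of all genes. Genes named only by a synonym, such as bHLH148, were left out of this choice and can lie nearer. GRF1 had 1 and 5 counts in zmknl1 and 208 and 118 counts in WT. The lipoxygenase gene lox9 (GRMZM2G017616) came second among genes with a symbol, at 1.11, 0.41 and 0.63 in the same order (86th, 26th and 101st nearest of all genes). It had 5 and 9 counts in zmknl1 and 125 and 84 in WT.

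The third gene with a symbol by profile differed between the 3. For bHLH7 and fea3 it was GLG1 (GRMZM2G163437, synonym agpsl1), which encodes an ADP-glucose pyrophosphorylase subunit of starch synthesis, at 1.48 and 0.89. It measured 5.83 and 4.75 CPM in zmknl1 and 32.5 and 13.5 CPM in WT. For ARF4 it was the beta-zein storage protein gene bz15 (GRMZM2G086294), at 0.83, which is also the distance of bHLH7 from ARF4, with 1083 and 2070 CPM in zmknl1 and 4011 and 7648 CPM in WT.

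**Figure D4:**
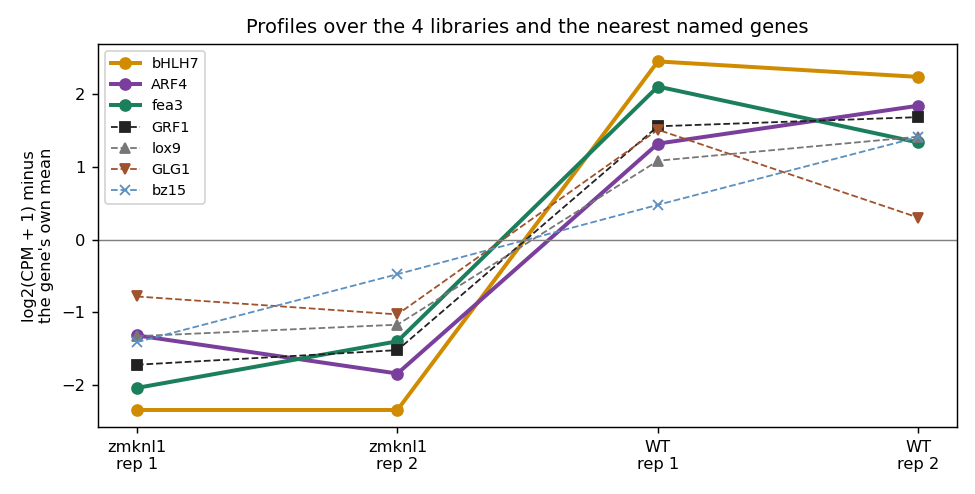
Profiles of log2(CPM + 1) over the 4 libraries, each gene centred on its own mean, for bHLH7, ARF4 and fea3 (solid) and the nearest genes with a symbol (dashed). Lines join the libraries of 1 gene and show no order between replicates. Among genes with a symbol of their own, GRF1 is nearest to each of the 3, at 0.74, 0.29 and 0.37.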

How the data were processed

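RNA was measured in 4 maize kernel libraries, 2 per genotype, grouped by their titles. Trimming used Trimmomatic 0.36, alignment HISAT2 2.0.1 with B73 RefGen_v3, and counting HTSeq, per the submitters' processing notes. The deposited tables hold the resulting raw counts per gene. The counting mode and strand setting are not given in the sources used here, so reads of overlapping or antisense genes cannot be told apart. Reads aligned to several places, 10.9% to 23.9% of a library, were not counted in genes.

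Lines for reads in no gene were left out. In R 4.3.3, edgeR 4.0.16 kept 19519 genes by its default filter, scaled them with TMM and tested zmknl1 over WT with the two-sided quasi-likelihood F-test without covariates. p-values were adjusted by Benjamini-Hochberg over all tested genes, with a threshold of 0.05. The SE of a fold change is its size divided by the square root of F. Alternatives used DESeq2 1.42.0, which gave 757 genes no adjusted p, limma 3.58.1 with voom, other scalings and filters, a replicate block, and each library left out. Separate ears apart, nothing is stated about how replicates were made, so p-values measure the spread between these libraries.

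The 3 genes and the lists were chosen with earlier results of these data known. Names and gene order came from a RefSeq gene table (Zm-B73-REFERENCE-NAM-5.0), in which 18539 IDs (46.8%) were matched to 1 gene. List members were matched by symbol or synonym, and 5 IDs whose names may belong to another protein were left out. Named in the text are list genes called by edgeR (there were 0), up to 3 DESeq2 calls per list by smallest p, the 3 with the highest mean CPM per list, and the 3 nearest profiles with a symbol, where genes under a mean of 1 CPM were left out. Other genes are said to be chosen after their values were seen, and marker genes were listed by name. For 1 listed marker the values are not reported here.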

Additional observations from a re-analysis of the deposited data

How the results depend on the processing

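The log2 fold change of each of the 3 genes was below 0 under all 36 alternatives that gave a value; requiring 10 counts in every library left the 3 genes out. For bHLH7 the fitted -12.00, which depends on the prior count, was -11.83 on library totals alone, -11.65 in DESeq2 and -10.23 in limma-voom, and it ran from -12.29 to -11.84 with a library left out. For ARF4 the range with a library left out was -10.62 to -4.48 and for fea3 -10.96 to -4.52. The number of edgeR calls over all genes, 4, was 0 on library totals alone, 0 without the 10 most abundant genes, 715 without a low-count filter, 1 with at least 10 counts in every library, 679 in DESeq2, 0 in limma-voom, and 19 to 805 with a library left out. Unadjusted p under 0.05 were 2096, 1997 and 2183 in the 3 fits with 0 calls. List genes called numbered 7 without a low-count filter, 9 in DESeq2 and 0 to 3 with a library left out. With the replicate number as a block, edgeR called 642 genes, 8 of them list genes. Deviations of same-numbered libraries correlated at 0.439 over 13193 genes, but with only 2 pairs and no label that pairs the ears, the numbers were not taken as pairs. List genes below both WT libraries numbered 23 to 31 of 53 with a library left out, against 30.6% to 38.5% of all tested genes, an alternative added after seeing the data. A count of 0 allows up to 0.120 to 0.256 CPM in a single library and 0.0627 CPM over both zmknl1 libraries.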

Other observations

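Apart from bHLH7, ARF4 and fea3, 42 genes had at least 5 CPM in both WT libraries and under 1 CPM in both zmknl1 libraries. The named ones among them were chosen after their values were seen and carry no test. ERECTA (GRMZM5G809695), named for a leucine-rich repeat receptor kinase that shapes organs in Arabidopsis, had 11 and 5 counts in zmknl1 and 333 and 111 counts in WT. NF-YA13 (GRMZM5G857944), named for a subunit of the CCAAT-binding factor, had 9 and 24 counts in zmknl1 and 287 and 393 counts in WT. The globulin gene glb2 (GRMZM2G026703) had 0 counts in both zmknl1 libraries and 5674 and 63 counts in WT, a wide spread between the WT libraries. GRF1, lox9, bHLH148 and bHLH173, described above, belong to the same 42.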
